A study of Saccharomyces cerevisiae with 2 samples.

Results

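The codons of the 3 aromatic amino acids were examined in a ribosome profiling table of budding yeast (Saccharomyces cerevisiae, strain yJC2229). They are TGG for tryptophan, TAC and TAT for tyrosine, and TTC and TTT for phenylalanine. Members are all pairs of a gene and 1 of these 5 codons in which the codon occurs at least once and the gene has 100 or more footprints. There were 13745 such pairs in 2939 genes, out of 253017 pairs of gene and sense codon in all 4579 listed genes. They comprised 2559 pairs for TGG, 2826 for TAC, 2698 for TAT, 2852 for TTC and 2810 for TTT, and a further 7973 pairs of the same codons lay in genes under the minimum. The strain was grown at 24 °C in YPD to mid-log phase without pretreatment, and 1 library of ribosome footprints and 1 of total RNA were made from it, so no difference below has a replicate check and no p-value is given. Footprints are mRNA fragments that a ribosome shields from nuclease, and they came from the 80S fraction of cells lysed with cycloheximide, a drug that blocks elongating ribosomes.

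An elongating ribosome waits at each codon until the matching tRNA arrives, so codons on which it stays longer tend to collect more footprints. Tryptophan has a single codon and, in yeast, a single kind of cytosolic tRNA that pairs with it at all 3 bases. Tyrosine and phenylalanine each have a pair of codons that share 1 kind of tRNA whose first anticodon base is a G. It pairs with the C-ending codon by Watson-Crick rules and with the T-ending codon by a G-U wobble. TAC and TTC are the forms that highly expressed yeast genes prefer. Aromatic side chains are large, and they are common in membrane-spanning segments and rare in disordered regions.

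The value of a pair was obtained by dividing the footprints on the codon by its occurrences and then by the gene mean, which is all footprints of the gene over all its codons. A value of 1 is therefore an average codon of that gene, and a codon's value over genes is the mean over all its occurrences. The files do not state which site of the ribosome the counted codon occupied. Expected footprints are the occurrences times the gene mean. Genes above the minimum held 3661148 footprints, 97.5% of all 3756929, with a median of 290 per gene. The 5 codons made up 8.56% of the codons in these genes (114295 occurrences) and received 7.49% of the footprints (274162). These shares take no account of the gene means. Against the footprints expected from those means, the 5 codons together were at 0.993. All 5 codons were present in 2301 genes, 380 genes had no TGG, 36 had no tyrosine and 15 had no phenylalanine codon.

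Relative to the gene mean, the tryptophan codon was the highest of the 5 and the phenylalanine codons were the lowest. Averaged over 13511 occurrences, TGG had a value of 1.48 (95% counting interval 1.44 to 1.51), TAC 1.09 (1.07 to 1.12) over 20067, TAT 0.722 (0.702 to 0.744) over 23114, TTT 0.684 (0.668 to 0.702) over 31967 and TTC 0.682 (0.664 to 0.701) over 25636. TGG thus lay 2.16 times as high as TTC (2.09 to 2.24) and 1.35 times as high as TAC (1.31 to 1.39). Among neighbours in this order, the intervals overlap between TTT and TTC and for no other pair, and TAT exceeded TTT by a ratio of only 1.06 (1.02 to 1.09). Among the 61 sense codons, counted from the highest, TGG stood at rank 13, TAC at 25, TAT at 52, TTT at 58 and TTC at 59. The only other amino acid with a single codon is methionine, and TGG was 1.74 times as high as its ATG (1.68 to 1.80), which includes start codons.

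**Figure D1:**
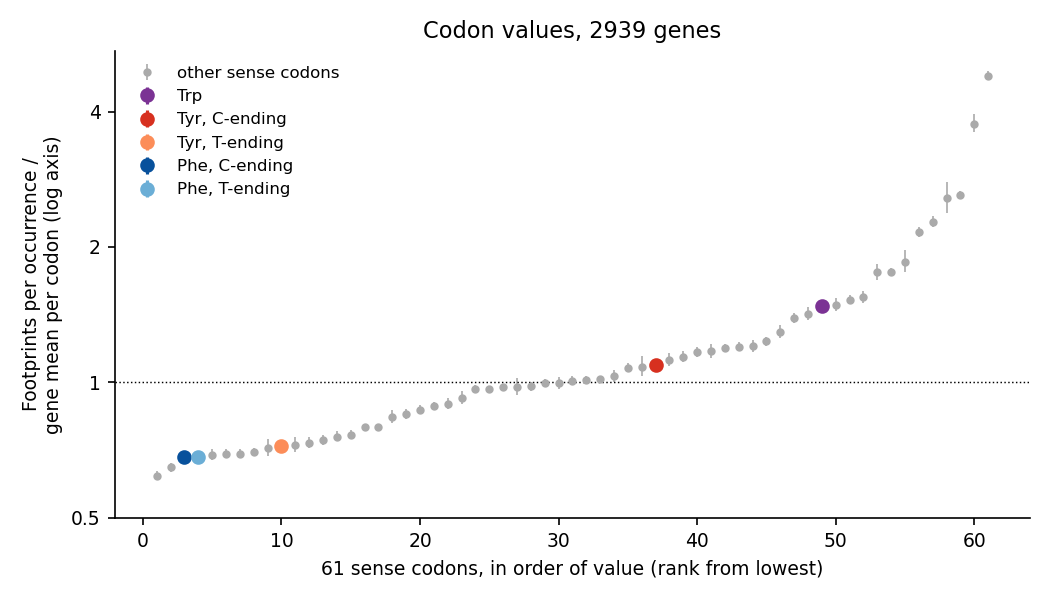
Mean value of each of the 61 sense codons over all its occurrences in 2939 genes (log axis), in order from lowest to highest, with 95% counting intervals. TGG sits at 1.48 and TAC at 1.09, above the dotted line of an average codon, while TAT, TTT and TTC sit between 0.682 and 0.722.

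These intervals cover counting error only and are narrower than the true uncertainty, since amplified reads are not independent molecules and footprints cluster. In genes with 1 occurrence of a codon and a mean of 2 to 8 footprints per codon, the variance of the footprints on that occurrence was between 4.22 (TTT) and 13.2 (TAC) times the mean. With a mean of 8 or more, as in many of the genes named below, it was between 86.8 (TTC) and 409 (TGG) times. These figures also hold differences among the genes. With every footprint given equal weight, as observed over expected footprints, TGG was at 1.51 (exact Poisson 95% interval 1.49 to 1.52), TAC at 1.24 (1.23 to 1.25), TAT at 0.783 (0.772 to 0.793), TTC at 0.771 (0.766 to 0.777) and TTT at 0.732 (0.724 to 0.740). Under this weighting, which lets strongly translated genes dominate, TTC came out above TTT.

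Taken by family, phenylalanine codons averaged 0.683 (0.671 to 0.696), tyrosine codons 0.895 (0.879 to 0.911), and the 5 aromatic codons together 0.857 (0.848 to 0.866). For comparison, the 7 isoleucine and valine codons averaged 0.836 (0.828 to 0.844), and the 7 codons of asparagine, glutamine, cysteine and methionine 0.735 (0.728 to 0.743). The 5 aromatic codons therefore spanned values from 0.682 to 1.48, against 0.647 to 1.53 in the isoleucine and valine group and 0.620 to 1.08 in the other. As observed over expected footprints, tyrosine codons were instead above 1, at 1.13 (1.12 to 1.13). Phenylalanine codons were then at 0.759 (0.754 to 0.763), and the 5 aromatic codons together at 0.993 (0.989 to 0.996). The isoleucine and valine group was at 0.833 (0.830 to 0.835) and the other group at 0.740 (0.738 to 0.743).

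Genes differed widely in the value of the same codon. Among pairs with 10 or more expected footprints, the median for TGG was 1.29 over 492 genes, and the middle 50% of genes ran from 0.767 to 1.95. The median was 1.06 (0.727 to 1.50) for TAC over 788 genes, 0.685 (0.401 to 1.02) for TAT over 705, 0.639 (0.425 to 0.918) for TTC over 959 and 0.609 (0.365 to 0.921) for TTT over 1051. The quartile ranges of all 5 codons overlap. The medians are lower than the means for each codon, and the highest 1% of pairs supplied between 8.06% (TAC) and 10.6% (TTC) of the summed value.

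A value of 2 or more was reached by 7.22% of pairs of all sense codons with 10 or more expected footprints (41054 pairs). The share was 24.4% for TGG (120 pairs) and 11.2% for TAC (88), and only 3.97% for TAT (28), 2.40% for TTC (23) and 1.81% for TTT (19). A value of 0.5 or less was found in 23.5% of pairs of all sense codons. It was found in 39.3% for TTT (413 pairs), 33.0% for TAT (233) and 32.3% for TTC (310), against 14.6% for TGG (72) and 13.3% for TAC (105). TGG and TAC were thus above the background at the high end and below it at the low end, and the other 3 codons the reverse.

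**Figure D2:**
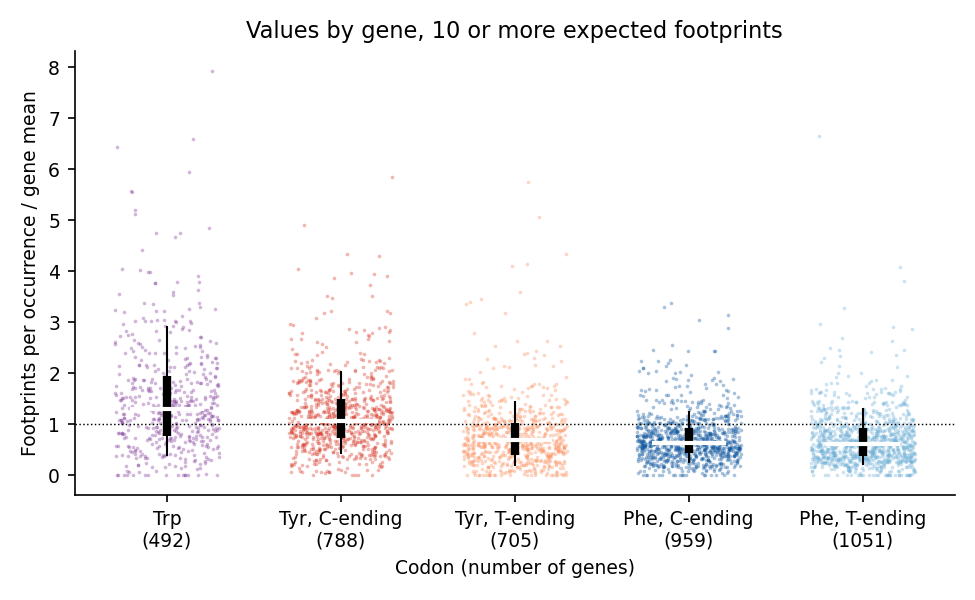
Value of each codon in each gene with 10 or more expected footprints (1 point per gene, 492 to 1051 genes per codon), where thick bars span the middle 50% of genes, thin bars the 10th to 90th percentile and white lines the median. Medians step down from 1.29 for tryptophan to 0.609 for T-ending phenylalanine, and the clouds overlap.

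Pairs without any footprint were common where few were expected. With 1 to 3 expected footprints, 37.0% of TGG pairs, 42.0% of TAC, 51.5% of TAT, 56.6% of TTC and 55.3% of TTT pairs were empty, against 41.6% for the other sense codons. With 10 or more expected, the shares were 3.05% for TGG, 0.635% for TAC, 3.26% for TAT, 1.88% for TTC and 2.85% for TTT, beside 1.83% for all sense codons. TGG, with the highest mean of the 5, thus had a share of empty pairs (15 pairs) above the background at high depth. So did TAT and TTT, while TTC was barely above it and TAC below. Of the 1814 pairs with 3 or more occurrences and 20 or more expected footprints, 9 were empty. Of these, 4 were TGG, all 4 in genes with a close copy elsewhere in the genome. Across genes, the values of different aromatic codons did not go together. Spearman's rho was -0.01 for TAC with TAT (511 genes), -0.00 for TTC with TTT (756 genes) and 0.03 for TGG with TTC (435 genes), where both values share the gene mean as divisor.

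Values just inside and just outside the minimum rest on few footprints. In the 151 genes with 100 to 109 footprints, TGG was at 1.50, TAC at 0.938, TAT at 0.828, TTC at 0.643 and TTT at 0.627. In the 171 genes with 90 to 99, which are not members, the codons were at 1.40, 1.08, 0.755, 0.593 and 0.773 in the same order. TTT differed most between the sides, with intervals of 0.542 to 0.730 inside and 0.675 to 0.886 outside, where it lay above TAT.

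The synonymous pairs of tyrosine and phenylalanine were compared to ask how the C-ending and T-ending codon of a shared tRNA differ. TAC was 1.51 times TAT (1.46 to 1.57), whereas TTC and TTT had a ratio of 1.00 (0.962 to 1.03). The same held within genes. Among 511 genes with 10 or more expected footprints on both tyrosine codons, TAC was higher in 355 (69.5%) and TAT in 154, and the median ratio was 1.58. Among 756 genes for phenylalanine, TTC was higher in 372 (49.2%) and TTT in 376, and the median ratio was 1.00. Over all 8 pairs of C-ending and T-ending codons that share such a tRNA, the C-ending codon was higher in 57.6% of 4008 gene comparisons. TAC was at least 2 times TAT in 39.4% of genes and TAT at least 2 times TAC in 11.2%, where the 8 pairs together gave 27.6% and 16.8%. For phenylalanine the shares were 24.2% and 20.8%. The C-ending codon of each pair also holds 1 more G or C base, so base content and kind of pairing cannot be told apart.

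The other 6 pairs lay between the levels of phenylalanine and tyrosine or close to one of them. The ratio of C-ending over T-ending codon was 1.40 for histidine (1.34 to 1.47), 1.43 for glycine (1.39 to 1.47), 1.52 for cysteine (1.43 to 1.61), 1.13 for serine (1.08 to 1.18), 1.09 for aspartate (1.06 to 1.12) and 1.00 for asparagine (0.969 to 1.03). The interval of tyrosine overlaps those of histidine, glycine and cysteine, and the interval of phenylalanine overlaps that of asparagine. As observed over expected footprints, tyrosine was the highest of the 8 at 1.58 (1.56 to 1.61), and its interval then overlapped none of the others. Within genes, the median ratio of cysteine was only 1.23, with the C-ending codon higher in 55.9% of 68 genes.

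**Figure D3:**
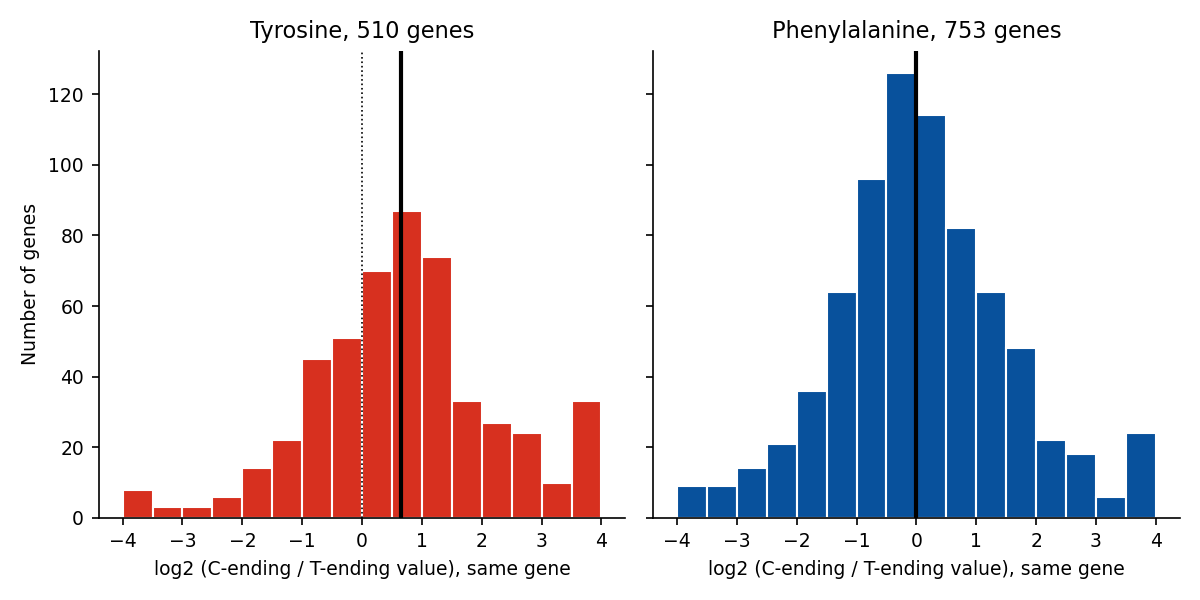
Number of genes by the log2 ratio of the C-ending over the T-ending codon value in the same gene, for tyrosine (510 genes) and phenylalanine (753 genes) with 10 or more expected footprints on both codons, ratios beyond 4 on the log2 scale drawn in the end bins. The solid line marks the median, a ratio of 1.58 for tyrosine and 1.00 for phenylalanine, and the dotted line marks equal values.

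Coding length was compared next, in classes of up to 200 codons (594 genes), over 200 to 400 (981), over 400 to 800 (1026) and over 800 codons (338). As means over occurrences, TGG, TAC, TAT and TTT differed little between the classes, and TTC differed more. TGG was at 1.47 (1.40 to 1.54), 1.56 (1.51 to 1.61), 1.47 (1.42 to 1.52) and 1.41 (1.32 to 1.52) from the shortest to the longest class. As observed over expected footprints, TGG ran from 1.35 (1.33 to 1.38) in the shortest class to 1.61 (1.59 to 1.63) in the second. The means over occurrences of the other codons follow. TAC was at 1.11, 1.06, 1.10 and 1.11, and TAT at 0.707, 0.738, 0.737 and 0.692. TTT was at 0.705, 0.723, 0.683 and 0.658, while TTC was lowest in the third class at 0.634 (0.613 to 0.657) and highest in the longest genes at 0.762 (0.712 to 0.821).

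For the 5 codons together, the longest class over the shortest gave a ratio of 0.952 (0.920 to 0.984), and single codons ranged from 0.933 for TTT (0.868 to 1.00) to 1.07 for TTC (0.995 to 1.16). As observed over expected footprints TGG was at 1.14 (1.09 to 1.18) and TTC at 0.977 (0.939 to 1.02), each on the other side of 1 from its mean over occurrences. The median of this ratio over the 61 sense codons was 0.991, with 28 codons above 1 and extremes of 0.846 and 1.37, so none of the 5 was at an extreme. With 149 genes that have a close copy elsewhere in the genome left out, the ratio for the 5 codons was 0.972 (0.938 to 1.01). Among the genes that passed the footprint minimum, shorter ones had more footprints per codon, with class medians of 3.33, 1.06, 0.495 and 0.224. Their counting error per occurrence was therefore smaller. The minimum applies to the whole gene whatever its length, so a short gene needs more footprints per codon to pass it. This order is thus partly set by the minimum, and how far was not tested.

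Gene abundance was compared in 4 equal classes of the authors' column headed FPKM, whose library is not named. In genes with 100 or more footprints, the C-ending codons had higher values in the most abundant class. TAC was at 1.02 (0.966 to 1.09) in the lowest class and at 1.04, 1.06 and 1.18 (1.14 to 1.22) in the following ones, a ratio of top over bottom of 1.15 (1.08 to 1.23). TTC was at 0.635 (0.593 to 0.680), 0.646, 0.635 and 0.757 (0.727 to 0.793), a ratio of 1.19 (1.10 to 1.29). TAT was at 0.741, 0.663, 0.759 and 0.724, with a ratio of 0.977 (0.900 to 1.06). TTT was at 0.674, 0.701, 0.703 and 0.655, with a ratio of 0.971 (0.905 to 1.04). TGG was at 1.48, 1.49, 1.49 and 1.45, with a ratio of 0.979 (0.916 to 1.05).

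**Figure D4:**
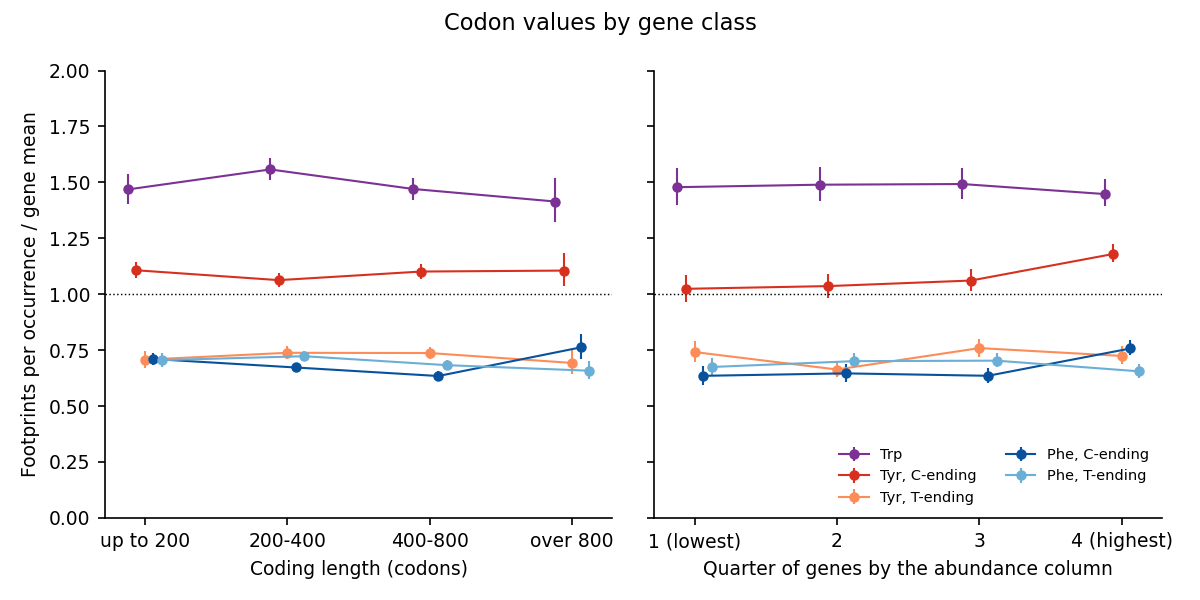
Mean value of the 5 codons over all their occurrences in 4 classes of coding length (left) and in 4 equal classes of genes by the authors' abundance column (right), with 95% counting intervals. The order of tryptophan, C-ending tyrosine and the other 3 codons is the same in all classes, and TAC (1.02 to 1.18) and TTC (0.635 to 0.757) are higher in the most abundant genes than in the least abundant.

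These contrasts depend on the genes taken and on how classes were made. Without a footprint minimum the ratio was 1.06 for TAC (0.975 to 1.15) and 1.02 for TTC (0.915 to 1.13), and both intervals include 1. In genes with 1000 or more footprints TAC was at 1.13 (1.09 to 1.18) and TTC at 1.05 (0.997 to 1.10), while TAT was at 1.16 (1.06 to 1.26). With the abundance column divided by coding length, TAT (1.23, 1.15 to 1.32) was as high as TAC (1.23, 1.15 to 1.31).

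Most sense codons had a ratio above 1 in this comparison: the median over the 61 codons was 1.09, and 51 lay above 1. Against that, TTC ranked 9 from the highest and TAC 16, while TGG, TAT and TTT ranked 54, 55 and 56. The value that a gene's mix of codons would give at the average value of each codon had a median of 1.04 in the lowest class and 0.949 in the top class. With each gene mean divided by the average value of its own mix of codons, TAC had a ratio of 1.06 (0.992 to 1.13), TTC 1.09 (1.01 to 1.18), TAT 0.916 (0.844 to 0.994), TTT 0.912 (0.850 to 0.979) and TGG 0.899 (0.840 to 0.962). The 5 codons together were 1.05 times as high in the top class as in the bottom one (1.02 to 1.09), and this direction turned to 0.976 (0.945 to 1.01) with the codon mix taken into account. As observed over expected footprints the ratio for the 5 codons was 1.23 (1.20 to 1.26), and TAT (1.15) and TTT (1.08) then also lay above 1.

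The gap between C-ending and T-ending codons also differed between classes. In the top class TTC was 1.16 times TTT (1.09 to 1.23), while in the 3 lower classes TTT was the higher of the pair, with ratios of 0.941 (0.864 to 1.03), 0.922 (0.856 to 0.993) and 0.904 (0.845 to 0.967). TAC over TAT was 1.38, 1.56, 1.40 and 1.63 (1.53 to 1.73). As observed over expected footprints, TTC over TTT was smaller in the top class, at 1.06 (1.04 to 1.08). It was then 0.958 (0.897 to 1.02), 1.02 (0.966 to 1.07) and 0.925 (0.892 to 0.959) in the lower classes. The abundant genes also used the C-ending codons more. TAC made up 52.0% of tyrosine codons in the top class, against 43.2% to 45.1% in the others, and TTC 50.2% of phenylalanine codons against 41.6% to 42.2%. In the top class 88.1% of tyrosine footprints lay on TAC and 74.8% of phenylalanine footprints on TTC, where 82.5% and 73.7% were expected from the gene means alone. In the lowest class the shares were 55.2% and 42.0%, with 47.2% and 43.1% expected. The shares of tryptophan (0.973% to 1.06%), tyrosine (3.09% to 3.35%) and phenylalanine (3.93% to 4.42%) among all codons were close in the 4 classes.

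Length and abundance were also crossed. In genes of the 2 more abundant classes, the 5 codons together were at 0.954 (0.943 to 0.967) in genes of up to 200 codons and at 0.924, 0.878 and 0.839 (0.814 to 0.865) in the longer ones. In the 2 less abundant classes the values were 0.847, 0.858, 0.813 and 0.857 (0.756 to 0.970), with no such order, and the last of these rests on 32 genes. The abundance column behaves as one not divided by length, so this crossing does not hold expression per codon equal. Among the more abundant genes, the median footprints per gene were 4074 in the shortest class and 254 in the longest. Length and expression per codon thus cannot be told apart here. Among the more abundant genes TAC was at 1.22 (1.20 to 1.25) in the shortest class, 1.13 and 1.14 in the middle ones and 1.10 (1.03 to 1.18) in the longest. TTT was at 0.823, 0.690, 0.693 and 0.661. No steady fall was seen for TGG (1.46, 1.55, 1.50 and 1.40), TAT (0.762, 0.805, 0.761 and 0.711) or TTC (0.717, 0.733, 0.655 and 0.742). The value of the 5 codons together also depends on codon usage. Over all member genes, TAC made up 55.5% of tyrosine codons in the shortest class and 41.7% in the longest. Among equal classes of aromatic content, the 5 codons were at 0.832, 0.894, 0.863 and 0.837, from genes with a median of 5.27% aromatic codons to genes with 11.8%, so the value did not follow the content. TTC alone went down through these classes, at 0.756 (0.709 to 0.809), 0.713, 0.671 and 0.639 (0.613 to 0.669).

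Genes that make or use the aromatic amino acids were compared with all genes. Over all 1720 genes with 20 or more expected footprints on the 5 codons together, the median observed over expected was 0.864, the middle 50% ran from 0.665 to 1.08, and 66.6% lay below 1. Of the 14 listed enzymes of aromatic amino acid synthesis, 13 had 100 or more footprints and 11 had 20 or more expected on these codons. Of these 11, 10 lay below 1, and their median was 0.771. The lowest was TYR1, prephenate dehydrogenase of tyrosine synthesis, with 8 footprints where 21.3 were expected (0.376, 0.162 to 0.740), and the highest was TRP2, a subunit of anthranilate synthase, at 1.01 (0.812 to 1.24). Chorismate mutase ARO7 was at 0.470 and TRP4, a transferase of the tryptophan branch, at 0.425, while the tryptophan synthase TRP5 was at 0.787.

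The tryptophan codons of the synthesis enzymes received 77 footprints where 108 were expected, a ratio of 0.710 (0.560 to 0.888), beside 1.51 in all genes. The mean over occurrences was 0.961 (0.593 to 1.51). The aminotransferase ARO8 alone, on 8 TGG codons, supplied 35.2 of the 108 expected footprints and 11 of the 77 observed, so the ratio leans on this gene. The pentafunctional ARO1 had none on 17, where 7.17 were expected, which allows a value of up to 0.419. ARO9, the second aromatic aminotransferase, had 8 on 8 codons, where only 1.76 were expected.

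Of the tRNA synthetases for tryptophan, tyrosine and phenylalanine, the 4 cytosolic genes passed the minimum, and the 3 mitochondrial ones, MSW1, MSY1 and MSF1, did not, with 69, 46 and 61 footprints. The median of the 4 was 0.857. The tyrosyl enzyme TYS1 was lowest, with 55 footprints on its aromatic codons where 116 were expected (0.474, 0.357 to 0.617). Its own amino acid's codons were at 0.733 (TAC) and 0.419 (TAT). FRS2, a subunit of the phenylalanyl enzyme, was highest at 1.20 (1.01 to 1.40), and the other subunit FRS1 was at 0.903. The tryptophanyl enzyme WRS1 was at 0.811, with 3 footprints on 3 TGG codons.

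Membrane transporters hold the most aromatic codons of the listed groups. These codons made up a median of 12.5% in 13 amino acid permeases and 14.3% in 4 hexose transporters, against 8.19% in all genes. In the permeases TGG was at 1.57 (1.35 to 1.82), TAC at 0.975 (0.821 to 1.17), TAT at 0.834, TTC at 0.531 (0.436 to 0.650) and TTT at 0.502 (0.411 to 0.616). The permeases ran from AGP1 at 0.418 to the lysine permease LYP1 at 1.16, with a median of 0.762. Of the 13, 9 (69.2%) lay below 1, close to the 66.6% of all genes with 20 or more expected footprints. On TGG, the methionine permease MUP1 was at 3.01 (51 footprints on 13 codons) and the S-adenosylmethionine permease SAM3 at 2.81 (23 on 10). AGP1 had none on 12, where only 3.73 were expected, which allows a value of up to 0.805. The 4 hexose transporters ran from HXT1 at 0.563 to HXT2 at 0.915, all below 1, with TGG at 1.09 (0.807 to 1.45). One of them, HXT4, has a close copy in HXT7.

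Glycolytic and fermentation enzymes, which are among the most translated yeast genes, had higher values. Their 20 genes had a median of 1.11, with 11 above 1, and the mean over occurrences was 1.79 for TGG (1.65 to 1.95), 1.47 for TAC (1.35 to 1.60), 0.754 for TAT, 0.897 for TTC and 0.946 for TTT. FBA1, aldolase, had the most footprints of any gene, and its 3 TGG codons held 413 per occurrence, 1.88 times the gene mean (1.78 to 1.99), while its 15 TAC codons were at 0.974 and its 15 TTC codons at 0.835. In the enolase ENO2, which has a close copy in ENO1, TGG was at 1.47 and TAC at 0.421. In triose phosphate isomerase TPI1, TGG was at 0.368 and TTT at 2.46, the reverse of the usual order. PDC5, a minor pyruvate decarboxylase, was the highest of the list at 3.03 (2.36 to 3.83). Its 14 TAC codons held 39 footprints (7.02 expected) and its 15 TTC codons held 26 (7.53 expected). Its TAT and TTT codons held 0, where only 2.01 and 3.01 were expected, so these zeros say little. The reads of PDC5 may be shared with its close relative PDC1 (12.9% of codons differing).

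Cell wall mannoproteins and wall enzymes had a median of 1.04 over 16 genes, 8 of them above 1. Their tryptophan codons had a mean of 1.66 over occurrences (1.54 to 1.81) and 2.65 over footprints (2.56 to 2.75). CCW12, an abundant mannoprotein, supplied 1515 of their 3119 footprints on its only TGG, 2.83 times its gene mean (2.69 to 2.98). The 2 TGG codons of HSP150 were at 6.58 (590 footprints), those of the wall glucanase family member SCW10 at 5.11 and those of CIS3 at 3.91. On the other side, the 2 TGG codons of PIR1 held none where 19.2 were expected (a value of up to 0.157), and CRH1, a transglycosylase that links chitin to glucan, had 4 on 7 TGG codons and was lowest of the list with a value of 0.390 over all 5 codons.

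Cytosolic ribosomal proteins lay around an average codon, with 68 of 136 genes below 1 and a median of 1.00. They ran from 0.112 for RPS28A to 2.50 for RPS26B. Both are copies of a pair of genes that encode nearly the same protein, and of 137 ribosomal protein genes with the minimum only 23 had no such copy. In those 23 the mean over the 5 codons was 1.06 (1.04 to 1.07), beside 1.04 (1.03 to 1.05) for all.

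**Figure D5:**
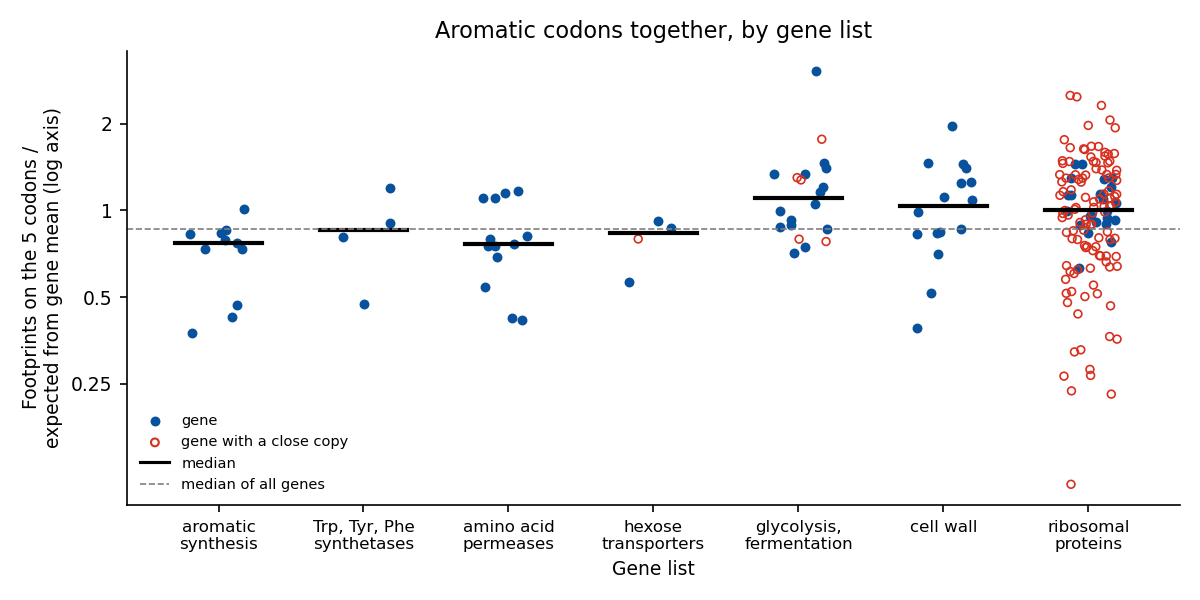
Observed over expected footprints on the 5 aromatic codons together (log axis) for each gene of 7 lists with 20 or more expected footprints, with the median of each list (black bars) and of all such genes (dashed line, 0.864). Open circles, genes with a close copy, include the lowest and the highest ribosomal protein genes, RPS28A at 0.112 and RPS26B at 2.50.

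The extremes of single codons were often genes with a close copy. Among pairs with 3 or more occurrences and 20 or more expected footprints, 12.6% lay in such genes, but 14 of the 30 pairs picked as the 3 highest and 3 lowest of each codon did, as did 7 of the 9 empty pairs. How the authors treated reads that match several genes is not given in the sources used here. In TEF1 and TEF2, the twin genes of elongation factor 1A, only 17 of the 34 kinds of sense codon present held any footprint, and neither had any on its 6 TGG codons, where 60.9 and 72.9 were expected. TEF1 also had none on 15 TTC codons. RPL4A, a large subunit protein, combined the highest TAC value among these pairs, 5.84 (337 footprints on 6 codons), with none on 6 TGG codons, and had footprints on 28 of 36 kinds of codon. RPL11A and RPL11B each had none on 7 TTC codons, where 161 and 163 were expected. The other pairs with low TAC values were RPS24A (0.0609) and RPS24B (0.113), 2 copies of a small subunit protein. RPS8A had 5 footprints on 6 TAC codons (0.0338) and 500 on 6 TTC codons (3.38). EFT2, elongation factor 2, had footprints on 17 of 40 kinds of codon and a TTC value of 3.30. The small subunit protein gene RPS23A was at 2.89 for TTC and the Hsp70 chaperone SSA1 at 2.96 for TTT. The values of these genes are uncertain, and the part of read assignment in them was not tested.

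Genes not marked as having a close copy also had strong extremes. The mark rests on codon counts, so relatives that differ more, as PDC5 and PDC1 do, are not marked. Shared reads were not tested for these genes either. For TGG the highest were SSE1, an Hsp110 chaperone (chromosome XVI, 350194 to 352275, R64), with 166 footprints on 4 codons and a value of 5.19 (4.43 to 6.05), SPE3, spermidine synthase (chromosome XVI, 684556 to 685437), at 4.67 (3.80 to 5.68), and GSP1, the Ran GTPase (chromosome XII, 720771 to 721430), at 4.03 (3.60 to 4.49). The lowest were CRH1 at 0.117 (0.0319 to 0.300), the ATPase OLA1 at 0.145 and ARO8 at 0.312. For TAC the highest were SCS2, an endoplasmic reticulum membrane protein (chromosome V, 401135 to 401869), at 4.90 (4.19 to 5.70), the glutaredoxin GRX2 (chromosome IV, 1471017 to 1471448) at 4.30 and ARC1, a cofactor of tRNA synthetases, at 4.05. The lowest were YPR063C at 0.134, the cyclophilin CPR1 at 0.223 and the ubiquitin-conjugating enzyme UBC4 at 0.282. CPR1 had footprints on 29 of its 40 kinds of codon, fewer than its neighbours in this list.

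For TAT the highest values were 2.43 for QCR8, a subunit of the cytochrome bc1 complex, with 100 footprints on 5 codons, 2.28 for the alcohol dehydrogenase ADH6 and 2.13 for thioredoxin reductase TRR1. CBF5, the pseudouridine synthase of box H/ACA particles, had no footprint on 8 TAT codons where 24.4 were expected, a value of at most 0.123, while the COPII GTPase SAR1 had 1 on 3 and CPP1 had 2 on 4. For TTT the highest was again GRX2, at 3.80 (3.33 to 4.31) with 237 footprints on 5 codons, followed by ATP5, a stalk subunit of the ATP synthase, at 2.49 and TPI1 at 2.46. The adenine phosphoribosyltransferase APT1 had none on 4 TTT codons where 20.2 were expected. The translocon subunit SBH1 had 1 on 3, and SUI3, the beta subunit of eIF2, had 2 on 6. For TTC the highest were YDL124W at 2.55 (2.04 to 3.14), SNA3 at 2.26 and the cytochrome oxidase subunit COX9 at 2.10, and the lowest were the clathrin light chain CLC1 with 1 footprint on 5 codons, the eisosome protein PIL1 with 3 on 4 and calmodulin CMD1 with 5 on 3. The lists without copies were chosen after the values were seen.

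In genes with a single tryptophan codon, the TGG footprints come from 1 place in the reading frame, whose position was not analysed here. Among 56 such genes with 20 or more expected footprints, the highest values were those of RPL13A (7.92, 6.96 to 8.98), RPS11B (5.95) and RPS11A (4.41), all with a close copy, and CPR1, RPS22B and RPL11B had none where 28.0, 25.8 and 23.3 were expected. Among the 18 without a close copy, the actin-severing cofilin COF1 was at 2.90 and CCW12 at 2.83. The stalk protein RPP0 had 4 where 62.8 were expected (0.0637), and the pyruvate kinase CDC19 had 25 where 129 were expected (0.193, 0.125 to 0.286). The lone tryptophan codon thus lay both far above and far below the gene mean in genes with deep coverage. In 82 genes with 1 TGG and a mean of 8 or more footprints per codon, the median was 0.735 (0.294 to 2.40 for the middle 50%), below the 1.29 of all genes with 10 or more expected footprints. These medians are not like for like. Single places are set against values that often average several places, and most of the 56 genes above have a close copy. Among pairs with 3 or more TGG and 20 or more expected footprints, the median was 1.05 with a close copy and 1.42 without.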

How the data were processed

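Raw footprint counts for each of 64 codons in each gene, summed over the codon's places in that gene, were deposited by the authors, per the file headers. Tools named in the submitters' processing notes are HTSeq, HISAT2, Bowtie2 and cutadapt, with build sacCer3. Settings, site assignment, strand use, multiple matches and duplicate removal were not given in the sources used here. The second set of deposited columns holds codon occurrences: 3 times their sum equals the RefSeq gene length in 94.9% of matched genes, and 0 pairs have footprints without an occurrence. The authors' deposited abundance column, headed FPKM, behaves as CPM not divided by length (100% of values are whole multiples of 0.0459 CPM, within 0.001 reads), and served only to order genes. RefSeq R64 names matched 4578 of 4579 identifiers.

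Values were computed with Python 3.11.15, NumPy 2.4.6, pandas 2.3.3 and SciPy 1.17.1. The codon means were recovered from simulated Poisson counts, which lack the excess variance of these data. The coverage of the intervals was not checked. Means carry gamma counting intervals, ratios delta-method intervals and single pairs exact Poisson intervals, all at 95%. For a count of 0, the upper limit is 3 footprints over the expected number. All cover counting error only. A gene was taken as having a close copy when its codon counts differed by 10% or less from a gene within 2% of its length, or when it was 1 of a pair of ribosomal protein genes. Named pairs were the 3 highest and 3 lowest of each codon with 3 or more occurrences and 20 or more expected footprints, the same for single tryptophan codons, the 3 genes with most footprints, the extremes of each list and members of the synthesis and synthetase lists. Other genes were named after their values were seen, and 1 item that the rule picks is not reported here. The codons, lists and classes were chosen with earlier results of these data known. The planned position of single residues was not run.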

Additional observations from a re-analysis of the deposited data

How the results depend on the processing

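Each value was recomputed under up to 9 other settings, of which the codon mix and the removal of genes with a close copy were chosen after seeing the data. Of 75 recomputed main values, 56 moved by less than the main counting interval, 17 moved by more, and 2 turned from a main value whose interval excludes 1. Counting main values whose interval includes 1, 4 of the 75 crossed 1, among them TTC over TTT. Of 250 recomputed values of single codons by class and of named pairs, 226 stayed within the interval and 24 moved. Of these 250, 16 crossed 1, each from a main value whose interval includes 1, and TAT by abundance did so under 4 settings.

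Without a footprint minimum (4579 genes), TTC was at 0.660, the length contrast of the 5 codons (longest over shortest class) at 0.906 and their abundance contrast (top over bottom class), 1.05 in the main setting, at 1.00, just under 1. With a minimum of 1000 footprints (559 genes), TAC was at 1.20, TAT at 0.811, TTC at 0.739, TTT at 0.716, TTC over TTT at 1.03, the length contrast at 0.897 and the abundance contrast at 1.10. As observed over expected footprints, TAC was at 1.24, TAT at 0.783, TTC at 0.771, TTT at 0.732, TAC over TAT at 1.58, TTC over TTT at 1.05 and the abundance contrast at 1.23. With each gene mean set against the codon mix, the abundance contrast turned to 0.976. With the abundance column divided by coding length it was 1.15. The cause of these shifts was not tested, and the direction of the abundance contrast depends on these settings. Leaving stop codons out of the gene mean, a cap at the 99th percentile (a value of 7.93), leaving out near-identical genes or genes with a close copy, and using only genes with both codons of a pair moved none of the main values beyond the interval.

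No paired analysis was possible because the table holds footprints of 1 library, so leaving out a replicate was not run either. The planned position of single residues was not run. Depth limits single pairs: with 1 to 3 expected footprints, between 37.0% (TGG) and 56.6% (TTC) were empty.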
